A study of Mus musculus and Sus scrofa with 30 samples.

Results

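The genes described here are 10 inflammatory genes of connective tissue cells: the chemokines Cxcl13, Cxcl12, Cxcl14, Ccl2, Ccl5 and Ccl7, the cytokine Il6, the interleukin-33 receptor Il1rl1, lipocalin-2 (Lcn2) and prostaglandin synthase Ptgs2. They were picked by name, with earlier results of these data known, and each was looked up by its gene symbol, ignoring case, in a table of the mouse 3T3-L1 line and a table of porcine dedifferentiated fat (DFAT) cells. The 3T3-L1 table lists 9 of the 10 among 24843 genes, and Cxcl14 is not listed. The DFAT table lists 8 of the 10 among 34307 genes, and CXCL13 and CCL7 are not listed. A mean of at least 10 normalized counts over the 15 libraries of a table was required for testing. This left 7 members of 15723 genes in 3T3-L1, where Il6 and Ccl5 fell short of the minimum, and all 8 listed members of 14819 genes in DFAT.

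The study asked how dicoumarol and magnolol, alone or together, affect adipogenic differentiation, with rosiglitazone as a further treatment. 3T3-L1 is an established mouse embryonic fibroblast line that is widely used as a preadipocyte model, so its libraries represent 1 cell line. DFAT cells are mature fat cells that have lost their lipid in culture and become fibroblast-like. In both systems the 5 groups were DMSO vehicle, dicoumarol, magnolol, dicoumarol together with magnolol (the combination) and rosiglitazone. Each group held 3 libraries, harvested on day 5 of differentiation, giving 30 libraries of messenger RNA sequencing in all. All 3T3-L1 groups, vehicle included, received 0.75 µg/mL insulin, 75 nM dexamethasone, 37.5 µM isobutyl methylxanthine (IBMX) and 10% serum. All DFAT groups received 2% serum with 20 µM biotin and 10 µM pantothenate, along with 12.5 µM IBMX and 0.5 µM dexamethasone, with no insulin named among the supplements. Dexamethasone, a glucocorticoid that lowers the transcription of many inflammatory genes, was thus present in the controls too. The labels give no dose for the 4 treatments. The labels do not say whether replicates were separate cultures, so p-values measure only the spread between these libraries, which may be technical.

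Chemokines are small secreted proteins that guide the movement of leukocytes by binding receptors on their surface, and fibroblasts and preadipocytes are among the cells that make them. Cxcl13 attracts B cells, Cxcl12 retains blood progenitors and lymphocytes in stroma, Ccl2 and Ccl7 recruit monocytes, Ccl5 recruits T cells and monocytes, and Cxcl14 is made by many epithelia and stromal cells. Il6 signals through the shared receptor chain Il6st, Il1rl1 (also called ST2) binds the alarmin interleukin-33, Lcn2 binds bacterial iron carriers, and Ptgs2 (cyclooxygenase-2) makes the precursor of the prostaglandins. Many of these genes are induced through NF-kappaB, AP-1 and C/EBP factors, and C/EBP factors also act early in fat cell differentiation. Rosiglitazone is an agonist of PPARγ, the main transcription factor of fat cells. Magnolol is a plant phenol from magnolia bark, and dicoumarol is an anticoagulant that blocks vitamin K recycling and the quinone reductase Nqo1.

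The promoters of the members were searched for the motifs of these 3 kinds of factor. RefSeq promoter entries of mouse build GRCm38.p6 were found for 7 of the 10 members, with 2 start sites for Il1rl1, so 8 entries were read over the 250 bases before the start. The sites searched, on both strands, were the NF-kappaB consensus, the AP-1 site TGANTCA and the C/EBP site TTNNGCAA. Among all 32851 promoters of this length, 3.90% hold the NF-kappaB consensus, 6.75% the AP-1 site and 9.56% the C/EBP site. Among the 8 member entries, 1 holds the NF-kappaB consensus, 1 the AP-1 site and 5 the C/EBP site. The 5 entries with a C/EBP match are shown 5′ to 3′ on the strand of the gene, with every match in capitals. Il6 alone holds all 3 motifs. Ccl2, Ccl5 and Ccl7 were not searched.
Cxcl13 (chr5:95956689-95956938, + strand): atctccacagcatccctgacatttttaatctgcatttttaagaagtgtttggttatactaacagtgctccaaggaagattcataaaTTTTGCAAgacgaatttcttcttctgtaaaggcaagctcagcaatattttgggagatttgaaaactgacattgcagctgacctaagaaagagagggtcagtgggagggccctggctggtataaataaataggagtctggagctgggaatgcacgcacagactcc
Il6 (chr5:30012864-30013113, + strand): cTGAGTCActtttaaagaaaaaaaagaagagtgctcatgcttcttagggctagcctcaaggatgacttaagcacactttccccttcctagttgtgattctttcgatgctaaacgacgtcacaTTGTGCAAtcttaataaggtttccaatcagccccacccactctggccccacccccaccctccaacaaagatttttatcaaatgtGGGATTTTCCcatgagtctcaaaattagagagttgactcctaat
Il1rl1, first start site (chr1:40429320-40429569, + strand): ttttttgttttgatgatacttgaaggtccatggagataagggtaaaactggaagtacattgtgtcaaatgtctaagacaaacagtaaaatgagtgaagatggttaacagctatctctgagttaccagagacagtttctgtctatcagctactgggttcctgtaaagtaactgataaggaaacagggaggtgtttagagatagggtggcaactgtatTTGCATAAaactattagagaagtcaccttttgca
Lcn2 (chr2:32387740-32387989, − strand): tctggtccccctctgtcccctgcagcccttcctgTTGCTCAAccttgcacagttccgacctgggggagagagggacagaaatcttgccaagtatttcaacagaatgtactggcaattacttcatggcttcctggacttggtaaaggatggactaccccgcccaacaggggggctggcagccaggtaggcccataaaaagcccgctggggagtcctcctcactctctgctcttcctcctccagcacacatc
Ptgs2 (chr1:150099781-150100030, + strand): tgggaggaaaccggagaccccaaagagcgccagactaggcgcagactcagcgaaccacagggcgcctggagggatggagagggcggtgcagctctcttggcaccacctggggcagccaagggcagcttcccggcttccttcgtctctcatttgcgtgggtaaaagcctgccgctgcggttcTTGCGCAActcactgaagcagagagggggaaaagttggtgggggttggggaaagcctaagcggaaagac
The C/EBP match begins 164 bases before the start in Cxcl13, 128 in Il6, 34 in Il1rl1, 216 in Lcn2 and 69 in Ptgs2, where it reads the same on both strands. In Il6 the AP-1 match begins 249 bases and the NF-kappaB match 44 bases before the start. The entries of Cxcl12 and Cxcl14 and the second start site of Il1rl1 hold none of the 3 motifs in this window. A match describes letters in the reference sequence, and neither binding nor accessibility was measured in these samples.

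The mouse table places Cxcl13 on chromosome 5 (start 96104810, end 96108927), Ccl2 (start 81926397, end 81928279) and Ccl7 (start 81936538, end 81938351) close together on chromosome 11, and Il1rl1 on chromosome 1 (start 40468730, end 40504575). These are the deposited coordinates of whole protein-coding genes, and their build could not be established, since only 2.18% of 24070 matched genes start where they do in the GRCm38 annotation. An estimated 22.8 to 30.7 M reads per library lie behind the 3T3-L1 values and 44.8 to 70.5 M behind the DFAT values. The summed level of 14 fat cell markers in 3T3-L1 averaged 61313 normalized counts with vehicle and 470643 with rosiglitazone, and in DFAT 26362 and 100563. Fibroblast markers were also abundant in both, with all 12 listed in 3T3-L1 and 11 of 12 in DFAT.

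In 3T3-L1 every member that could be tested had a lower mean in each of the 4 treated groups than with vehicle. The group means of Cxcl13, Cxcl12, Ccl2, Ccl7 and Il1rl1 lay in the same order, from vehicle through dicoumarol, magnolol and the combination to rosiglitazone. The B cell chemokine Cxcl13 was lowest by far with rosiglitazone, with a mean 0.0818 times that of vehicle, and the monocyte chemokines Ccl2 and Ccl7 fell with the combination and with rosiglitazone. Lcn2 and Ptgs2 fell with rosiglitazone, while their differences with the other treatments did not pass the test. In bulk RNA, fewer cells that make a transcript and less of it per cell cannot be told apart.

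**Figure D1:**
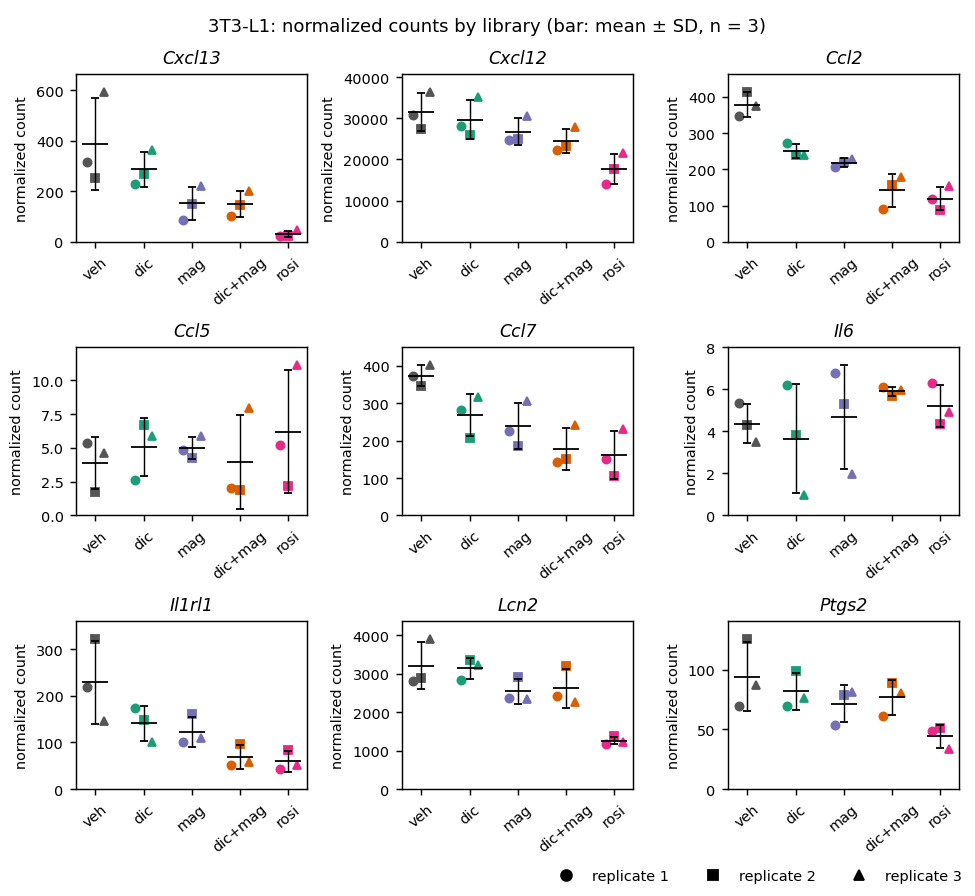
Normalized counts (vertical axes, linear from 0) of the 9 members listed for 3T3-L1, by group (veh, vehicle; dic, dicoumarol; mag, magnolol; dic+mag, combination; rosi, rosiglitazone). Symbols are the 3 libraries of a group by replicate number, and bars are the mean ± SD. All 7 tested members have their lowest group mean with rosiglitazone, and Ccl5 and Il6 stay at or below 11.1.

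Values are normalized counts for replicates 1, 2 and 3, and means are ± SD of 3 libraries. Cxcl13 stood at 314, 251 and 594 with vehicle (386 ± 183), at 229.7, 267 and 364 with dicoumarol (287 ± 69.2) and at 87.3, 149.8 and 220.1 with magnolol (152 ± 66.4). With the combination it was 100.4, 146 and 203 (149.5 ± 51.2), and with rosiglitazone 24.1, 25.0 and 45.7 (31.6 ± 12.2). The magnolol, combination and rosiglitazone libraries all lay below every vehicle library, and the rosiglitazone libraries lay below all others. Vehicle replicate 3 was far above the other vehicle libraries, and replicate 3 was the highest library in 5 of 5 groups. The log2 fold change with rosiglitazone was −3.53 (SE 0.37), which is given as a description because it was known when the genes were chosen. For dicoumarol it was −0.36 (SE 0.37, limma adjusted p = 0.9998), for magnolol −1.33 (SE 0.37, adjusted p = 0.116) and for the combination −1.32 (SE 0.37, adjusted p = 0.0487). The vehicle libraries of Cxcl13 also entered the known value, so its p-values against vehicle are not independent of the choice of the gene. With the replicate number as a block the magnolol difference passed the test (adjusted p = 0.000196). The call for the combination was lost without vehicle replicate 1 (log2 fold change −1.42, adjusted p = 0.0820), vehicle replicate 3 (−0.96, 0.208), combination replicate 1 (−1.07, 0.256) or combination replicate 2 (−1.33, 0.0981). Over all 13 alternatives, 7 of which lost the call, its adjusted p ran from 8.84e-05 with the replicate block to 0.256. The main fit and the fits that left out a library had no replicate block, here and below. In 3T3-L1 a call missed or lost in them comes from fits that leave out the pairing of replicate numbers.

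Cxcl12 was measured at a high level in every 3T3-L1 library. Its values were 30844, 27417 and 36468 with vehicle (31577 ± 4569.6), 28109, 25832 and 35040.3 with dicoumarol and 24796, 24861 and 30590.2 with magnolol. The combination gave 22255, 23309.5 and 27874 (24479 ± 2986) and rosiglitazone 14102, 17591 and 21496 (17729.7 ± 3699). Only the rosiglitazone libraries lay below all vehicle libraries, and neighbouring groups overlapped from vehicle down to the combination. Cxcl12 fell with rosiglitazone (log2 fold change −0.84, SE 0.16, adjusted p = 0.000672). For the combination the log2 fold change of −0.36 (SE 0.16) missed the threshold without the replicate block (adjusted p = 0.252) and passed it with the block (0.0111). Replicate 3 was the highest library in 5 of 5 groups here too.

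The neighbouring genes Ccl2 and Ccl7, both monocyte attractants, followed nearly the same order. Ccl2 stood at 348, 414 and 373 with vehicle (379 ± 33.3), 273, 240.0 and 239 with dicoumarol (251 ± 19.4) and 206, 220.4 and 229 with magnolol (218 ± 11.8). It stood at 91.3, 156 and 178 with the combination (142 ± 45.0) and 117, 88.1 and 153 with rosiglitazone (119.5 ± 32.6). Each of the first 4 groups was separate from the next, with no overlap from vehicle down to the combination, and the combination and rosiglitazone overlapped. Ccl2 fell with the combination (log2 fold change −1.46, SE 0.22, adjusted p = 0.00120) and with rosiglitazone (−1.69, SE 0.22, adjusted p = 2.07e-05). The magnolol difference was −0.79 (SE 0.22, adjusted p = 0.114, and 0.0267 with the replicate block). The dicoumarol difference was −0.59 (SE 0.22, adjusted p = 0.9998).

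Ccl7 stood at 373, 347 and 402 with vehicle (374 ± 27.4), 281, 207 and 317 with dicoumarol and 226, 185 and 306 with magnolol. The combination gave 142, 151 and 243 (179 ± 56.1) and rosiglitazone 151, 105 and 232 (163 ± 64.2). All treated libraries were below all vehicle libraries, while the treated groups overlapped their neighbours, and replicate 3 was highest in 5 of 5 groups. Ccl7 fell with the combination (log2 fold change −1.10, SE 0.27, adjusted p = 0.0245) and with rosiglitazone (−1.27, SE 0.27, adjusted p = 0.00142). The combination call was lost on leaving out vehicle replicate 1 (adjusted p = 0.0652), 2 (0.0550) or 3 (0.0824), or combination replicate 1 (0.144) or 2 (0.0785), with log2 fold changes from −1.15 to −0.96. Over its 13 alternatives, 6 of which lost the call, the adjusted p ran from 0.000105 with the replicate block to 0.144. The magnolol difference of −0.67 (SE 0.27) had an adjusted p of 0.366, and 0.0121 with the replicate block.

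Il1rl1, the interleukin-33 receptor, stood at 219, 323 and 145 with vehicle (229 ± 89.1), 174, 149 and 100.4 with dicoumarol and 101, 160.3 and 109 with magnolol. With the combination it was 50.7, 97.3 and 58.6 (68.9 ± 25.0), and with rosiglitazone 43.0, 83.7 and 50.6 (59.1 ± 21.7). The combination and rosiglitazone libraries lay below all vehicle libraries and overlapped each other, while the dicoumarol and magnolol groups overlapped vehicle. The log2 fold change with the combination, −1.70 (SE 0.33), was known when the genes were chosen and is given without a test. Il1rl1 fell with rosiglitazone (log2 fold change −1.92, SE 0.33, adjusted p = 0.000251). With magnolol the difference was −0.84 (SE 0.33, adjusted p = 0.349, and 0.0250 with the replicate block). The vehicle libraries of Il1rl1 entered the known value too, so these p-values are not independent of the choice of the gene.

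Lcn2, which binds iron carriers, stood at 2821, 2892 and 3911 with vehicle (3208 ± 610.1), 2836, 3349 and 3224 with dicoumarol, and 2367, 2922 and 2340.0 with magnolol. It stood at 2416, 3194 and 2252 with the combination and 1179, 1369 and 1230.0 with rosiglitazone (1259.5 ± 98.2). The rosiglitazone libraries lay apart from all others, and the other 4 groups overlapped. Lcn2 fell with rosiglitazone (log2 fold change −1.33, SE 0.14, adjusted p = 4.31e-06). The prostaglandin synthase gene Ptgs2 stood at 69.5, 126 and 87.2 with vehicle (94.2 ± 28.8), 69.8, 99.0 and 76.1 with dicoumarol, and 53.3, 79.1 and 81.2 with magnolol. It stood at 60.8, 88.8 and 80.4 with the combination and 48.2, 51.1 and 33.3 with rosiglitazone (44.2 ± 9.53). As for Lcn2, only rosiglitazone was separate from vehicle, and Ptgs2 fell there (log2 fold change −1.05, SE 0.25, adjusted p = 0.003675). For the combination the adjusted p was 0.322 for Lcn2 and 0.683 for Ptgs2, with log2 fold changes of −0.29 (SE 0.14) and −0.27 (SE 0.25).

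Il6 and Ccl5 were near the lower end of what these libraries can count. Il6 ranged from 0.98 to 6.79 normalized counts, an estimated 1 to 7 reads, and Ccl5 from 1.71 to 11.1, an estimated 2 to 9 reads. No test was made at this depth. The 3 combination libraries of Il6, at 6.08, 5.67 and 5.96, lay above the vehicle libraries, at 5.34, 4.28 and 3.49, while the other treated groups of Il6 and all treated groups of Ccl5 overlapped vehicle. These combination libraries and vehicle replicate 1 held the same estimated number of reads for Il6, so their order rests on the size factors.

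Counted over the 7 tested members, 0 passed the test with dicoumarol, where 0% of all genes were called, and 1 had an unadjusted limma p below 0.05. With magnolol 0 members were called, beside 1.23% of all genes, and 5 had an unadjusted p below 0.05. The replicate block raised this to 4 lower members (Cxcl13, Ccl2, Ccl7 and Il1rl1), beside 1.44% of genes called lower in that fit. The combination gave 4 lower members, Il1rl1 included, beside 1.36% of genes called lower, and the replicate block added Cxcl12, beside 5.48%. Rosiglitazone gave 7 lower members of 7, Cxcl13 included, beside 19.9% of genes called lower. Since the members were chosen with results of these data known, these shares describe them and support nothing further. The share of all genes with an unadjusted p below 0.05 was not counted. Counts of members at that threshold, here and below, therefore have no background and cannot be set against the shares called. Libraries did not overlap with vehicle for 2 members in the dicoumarol group (background 5.83%), 3 in the magnolol group (15.4%), 4 in the combination group (21%) and 7 in the rosiglitazone group (45.6%). The median log2 fold change of the 7 was −0.36, −0.67, −1.10 and −1.33 in that order, while the median over all genes lay between −0.01 and 0.00.

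**Figure D2:**
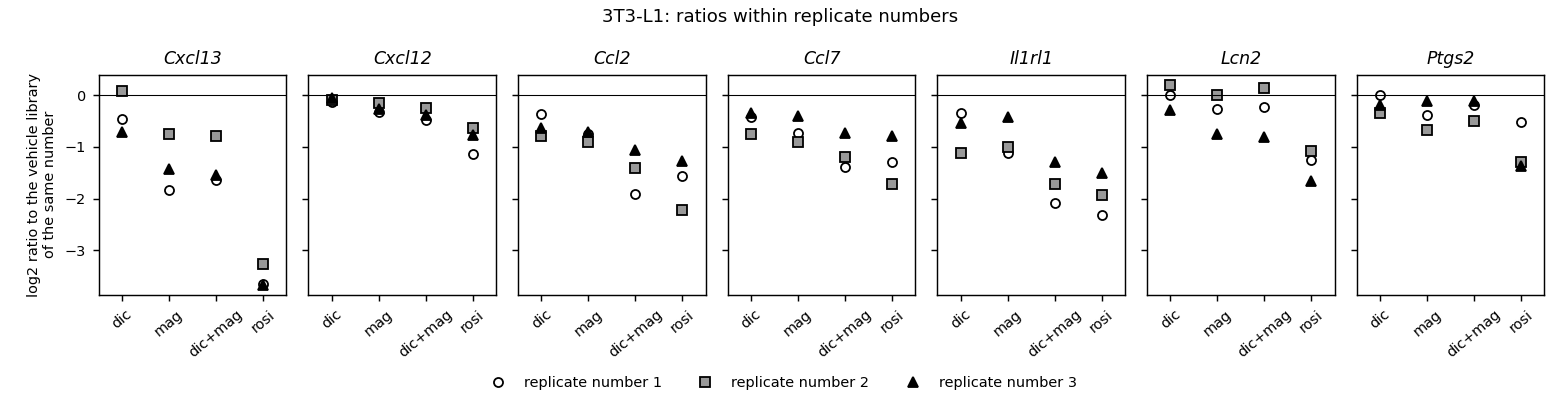
Log2 ratio of each treated 3T3-L1 library to the vehicle library of the same replicate number (vertical axis) for the 7 tested members, by treatment (dic, dicoumarol; mag, magnolol; dic+mag, combination; rosi, rosiglitazone). Each symbol is 1 library, and all ratios with rosiglitazone lie below 0, as do all ratios of Ccl2, Ccl7, Il1rl1 and Cxcl12.

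Replicate numbers moved together in 3T3-L1, and ratios within a number showed the same falls. Adjusted p-values given without the replicate block do not use this pairing. Relative to the vehicle library of its own number, Cxcl13 ranged from −1.84 to −0.74 with magnolol and from −1.64 to −0.78 with the combination. Ccl2 ranged from −1.92 to −1.07 with the combination, and Il1rl1 from −1.11 to −0.42 with magnolol. Lcn2 differed in sign between numbers for dicoumarol, magnolol and the combination, as did Cxcl13 and Ptgs2 for dicoumarol.

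Markers of immune cells were followed beside these values, since macrophages also make several of these genes. Of 16 macrophage and leukocyte markers 12 were listed in the 3T3-L1 table and 5 reached the minimum, led by Cd14 and Lyz2. Their summed level ranged from 460.1 to 484 normalized counts with vehicle, 360.0 to 401 with dicoumarol and 327 to 344 with magnolol. It ranged from 306 to 364 in the combination group and from 211 to 254 in the rosiglitazone group. The leukocyte marker Ptprc and the macrophage marker Adgre1 are not listed, and Itgam did not exceed 1.95 in any library. Fibroblast markers moved with the members as well, from a mean sum of 640415 with vehicle to 387682 with rosiglitazone. Fat cell markers moved the other way. The part of these shifts in the members' falls was not tested.

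Adding magnolol to dicoumarol was compared with dicoumarol alone. No member passed the test in 3T3-L1 (0.0254% of genes called), while 4 had an unadjusted limma p below 0.05 and all 7 lay below 0. With the replicate block 4 members were lower, Il1rl1 included, beside 1.13% of genes called lower. Il1rl1 (log2 fold change −1.04, SE 0.33) is given without a p-value, since its combination libraries entered the value known at selection. The others were Cxcl13 (−0.97, adjusted p = 0.00516), Ccl2 (−0.87, 0.0205) and Ccl7 (−0.60, 0.0332), whose adjusted p-values without the block were 0.431, 0.1504 and 0.565. Adding dicoumarol to magnolol gave no call in 3T3-L1 by limma (0% of genes), and 2 members had an unadjusted p below 0.05, Ccl2 (−0.67, SE 0.22) and Il1rl1 (−0.86, SE 0.33), the latter again a description. For Cxcl13 the difference between the combination and magnolol was 0.01 with a 95% interval from −0.77 to 0.79.

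Rosiglitazone was also set against the combination. In 3T3-L1 4 of 7 members were lower with rosiglitazone, Cxcl13 included, beside 8.78% of genes called lower. The log2 fold change of Cxcl13, −2.21 (SE 0.37), is given without a p-value, since its rosiglitazone libraries entered the value known at selection. Lcn2 was lower by −1.04 (SE 0.14, adjusted p = 0.000676), Ptgs2 by −0.79 (SE 0.25, 0.0419) and Cxcl12 by −0.48 (SE 0.16, 0.04997). The Ptgs2 call was lost without combination replicate 2 (log2 fold change −0.67, adjusted p = 0.129) or 3 (−0.74, 0.113) and without rosiglitazone replicate 1 (−0.86, 0.0842) or 3 (−0.60, 0.142), with a range of 0.00540 to 0.142 over 13 alternatives. The Cxcl12 call was lost without combination replicate 1 (−0.54, 0.0667), 2 (−0.51, 0.0847) or 3 (−0.38, 0.178) and without rosiglitazone replicate 1 (−0.33, 0.239) or 2 (−0.48, 0.0651), with a range of 0.000793 to 0.239. In all, 7 of 13 alternatives lost the Ptgs2 call and 9 of 13 the Cxcl12 call. The lowest values, 0.00540 and 0.000793, came with the replicate block. Ccl2 and Ccl7 did not pass, with log2 differences of −0.22 (95% interval −0.68 to 0.24) and −0.16 (−0.73 to 0.40). For Il1rl1 the difference was −0.22 (−0.91 to 0.47).

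The porcine DFAT cells showed another pattern. CXCL12 was the only member called lower with each of the 4 treatments, to between 0.391 and 0.550 times its vehicle mean. LCN2 rose with the combination and with rosiglitazone, and PTGS2 rose with rosiglitazone. CCL2 rose with magnolol and fell with rosiglitazone, and CCL5 fell with the combination. CXCL14, IL6 and IL1RL1 passed no test against vehicle.

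**Figure D3:**
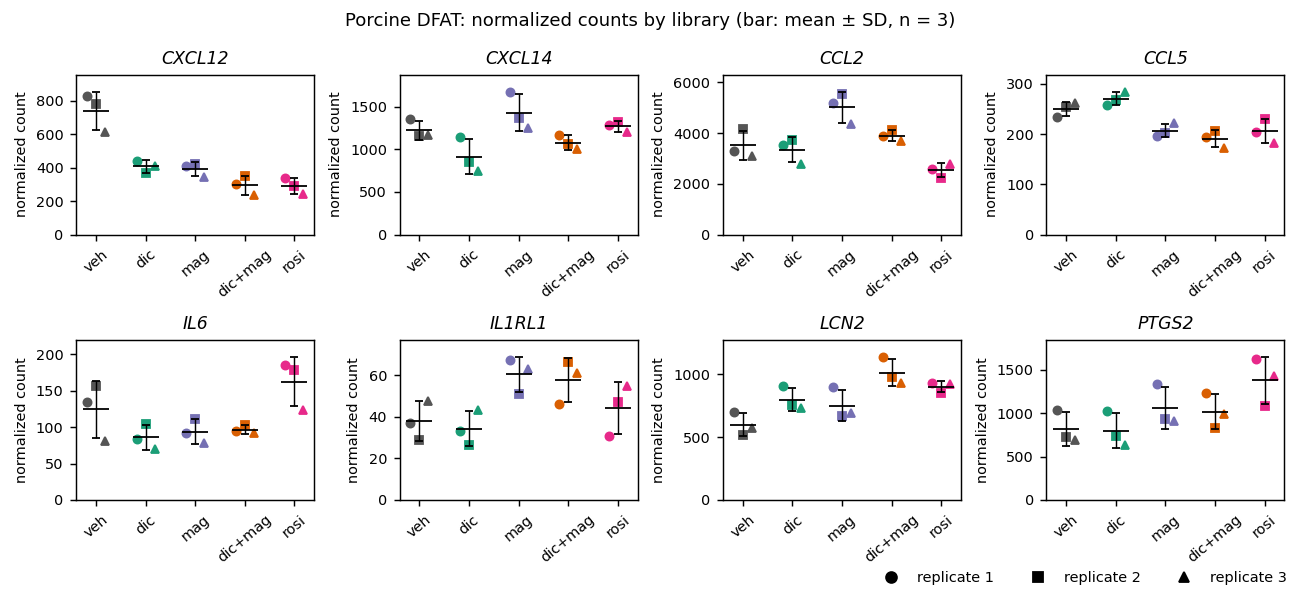
Normalized counts (vertical axes, linear from 0) of the 8 members listed for DFAT, by group (veh, vehicle; dic, dicoumarol; mag, magnolol; dic+mag, combination; rosi, rosiglitazone). Symbols are the 3 libraries of a group by replicate number, and bars are the mean ± SD. The vehicle libraries of CXCL12, at 614 to 829, lie above all treated libraries, and magnolol gives the highest CCL2 values.

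CXCL12 stood at 829, 782 and 614 with vehicle (742 ± 113), 442, 369 and 412 with dicoumarol (408 ± 36.5) and 412, 425 and 344 with magnolol (394 ± 43.6). It stood at 300.1, 349 and 236 with the combination (295 ± 56.7) and 336, 294 and 240.4 with rosiglitazone (289.9 ± 47.8). Every treated library lay below every vehicle library, while neighbouring treated groups overlapped. The chemokine fell with every treatment, with a log2 fold change of −0.85 for dicoumarol (SE 0.15, adjusted p = 0.00479) and −0.91 for magnolol (SE 0.15, adjusted p = 0.00147). For the combination it was −1.33 (SE 0.15, adjusted p = 1.29e-05), and for rosiglitazone −1.35 (SE 0.15, adjusted p = 7.84e-06). All 4 calls held under each of their 13 alternatives.

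CCL2 stood at 3296, 4179 and 3108 with vehicle (3527 ± 572), 3533, 3743 and 2791 with dicoumarol and 5186, 5542 and 4353 with magnolol (5027 ± 610.3). The combination gave 3897, 4138 and 3687, and rosiglitazone 2600.3, 2229 and 2783 (2538 ± 282). The magnolol libraries were all above, and the rosiglitazone libraries all below, the vehicle libraries. CCL2 rose with magnolol (log2 fold change 0.52, SE 0.12, adjusted p = 0.0216) and fell with rosiglitazone (−0.47, SE 0.12, adjusted p = 0.0188). The magnolol call was lost without vehicle replicate 1 (log2 fold change 0.47, adjusted p = 0.105), vehicle replicate 3 (0.43, 0.110), magnolol replicate 1 (0.49, 0.0892) or magnolol replicate 2 (0.44, 0.0990), over a range of 0.00408 to 0.110. The rosiglitazone call was lost without vehicle replicate 2 (−0.34, 0.118) or rosiglitazone replicate 2 (−0.38, 0.0697), over a range of 0.00424 to 0.118. In all, 6 of 13 alternatives lost the magnolol call and 4 of 13 the rosiglitazone call.

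CCL5, which recruits T cells, stood at 233, 254 and 261 with vehicle (249 ± 14.3), 258, 267 and 284 with dicoumarol, and 197, 203 and 221 with magnolol. It stood at 193, 206 and 172 with the combination (190.4 ± 17.2) and 204, 230.3 and 182 with rosiglitazone. The magnolol, combination and rosiglitazone libraries all lay below the vehicle libraries. CCL5 fell with the combination (log2 fold change −0.39, SE 0.11, adjusted p = 0.0317), and the call was lost without vehicle replicate 2 (log2 fold change −0.38, adjusted p = 0.0791) or 3 (−0.36, 0.105) and without combination replicate 1 (−0.40, 0.0710) or 3 (−0.32, 0.134). Over its 13 alternatives, 5 of which lost the call, the adjusted p ran from 0.0175 to 0.134. For magnolol and rosiglitazone the differences were −0.27 (SE 0.11, adjusted p = 0.217) and −0.28 (SE 0.11, adjusted p = 0.128).

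CXCL14 stood at 1351, 1155 and 1162 with vehicle (1223 ± 111), at 1139.8, 849.6 and 747 with dicoumarol (912 ± 204) and at 1675, 1367 and 1249 with magnolol (1430.4 ± 219.9). The combination gave 1171, 1062 and 999, and rosiglitazone 1280.3, 1322 and 1199.7. Only the dicoumarol libraries were separate from vehicle, with a log2 fold change of −0.44 (SE 0.13, adjusted p = 0.117). Without dicoumarol replicate 1 that difference was −0.61 and passed the test.

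IL6 was measurable in DFAT, at 134, 157 and 81.5 with vehicle (124 ± 38.7), 83.8, 104 and 69.8 with dicoumarol, and 92.3, 111 and 77.9 with magnolol. The combination gave 95.1, 103 and 91.7 (96.6 ± 5.82) and rosiglitazone 185, 179 and 123 (162 ± 33.9). Every treated group overlapped vehicle. IL1RL1 was low, at 37.2, 29.0 and 47.9 with vehicle (38.0 ± 9.48), 33.1, 26.5 and 43.3 with dicoumarol and 67.2, 51.2 and 63.1 with magnolol (60.5 ± 8.34). It stood at 46.1, 66.6 and 61.2 with the combination and 30.8, 47.1 and 55.0 with rosiglitazone. All magnolol libraries lay above vehicle, with a log2 fold change of 0.68 (SE 0.26, adjusted p = 0.177).

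LCN2 stood at 700.0, 520.2 and 575 with vehicle (599 ± 92.1), 906, 757 and 734 with dicoumarol (799 ± 93.1) and 896, 671 and 689 with magnolol (752 ± 125). The combination gave 1139, 978 and 929 (1015 ± 109.9), and rosiglitazone 932, 853 and 924 (903 ± 43.1). Apart from magnolol, which overlapped vehicle, the treated groups lay wholly above vehicle. LCN2 rose with the combination by 0.77 (SE 0.12, adjusted p = 0.000474) and with rosiglitazone by 0.60 on the log2 scale (SE 0.12, adjusted p = 0.00334), while for dicoumarol the difference was 0.42 (SE 0.12, adjusted p = 0.120).

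PTGS2 stood at 1038, 723 and 686 with vehicle (816 ± 193), 1028, 734 and 637 with dicoumarol, and 1339.8, 935 and 913 with magnolol. The combination gave 1229, 829.7 and 998, and rosiglitazone 1621, 1086 and 1428 (1378 ± 271). Only the rosiglitazone libraries were above all vehicle libraries, and replicate 1 was the highest library in 5 of 5 groups, as for LCN2. PTGS2 rose with rosiglitazone by 0.76 (SE 0.20, adjusted p = 0.0214). The call was lost without vehicle replicate 2 (log2 fold change 0.69, adjusted p = 0.0938) or 3 (0.65, 0.0926) and without rosiglitazone replicate 1 (0.63, 0.0912) or 3 (0.73, 0.0720), with a range of 1.49e-05 to 0.0938. In all, 6 of 13 alternatives lost the PTGS2 call.

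Of the 8 DFAT members, 1 was called with dicoumarol beside 1.94% of all genes, and 2 with magnolol beside 4.22%. The combination gave 3 called members beside 10.2% of genes, and rosiglitazone 4 beside 10.8%. No library of the group overlapped vehicle for 3 members in the dicoumarol group (background 19.3%), 4 in the magnolol group (21.9%), 3 in the combination group (28.9%) and 5 in the rosiglitazone group (21.4%). Macrophage and leukocyte markers in DFAT had a summed mean of 1069.9 normalized counts with vehicle and 960 with rosiglitazone, and their ranges overlapped. PTPRC, the pan-leukocyte marker, did not exceed 0.98 in any library. Fibroblast markers averaged 5043970 in sum with vehicle, 7024510 with the combination and 4572830 with rosiglitazone, and their part in the results was not tested.

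In DFAT the combination was lower than dicoumarol alone in 1 member, CCL5, by −0.50 (SE 0.11, adjusted p = 0.0188), beside 0.344% of genes called lower. That call was lost without dicoumarol replicate 1 (log2 fold change −0.53, adjusted p = 0.0568), 2 (−0.51, 0.0675) or 3 (−0.47, 0.101) and without combination replicate 1 (−0.52, 0.0555) or 3 (−0.43, 0.111), with a range of 0.00808 to 0.111. No member was called between the combination and magnolol by limma (0.621% of genes called), with 4 at an unadjusted p below 0.05. With the replicate block, where these 2 groups' numbers moved together, LCN2 was higher (log2 fold change 0.44, adjusted p = 0.00315) and CXCL14 lower (−0.40, 0.0141) with the combination, beside 1.96% of genes.

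Between rosiglitazone and the combination in DFAT, 2 members were called beside 17% of genes. CCL2 was lower by −0.63 (SE 0.12, adjusted p = 0.00178). IL6 was higher by 0.72 (SE 0.23, adjusted p = 0.0367), and none of its rosiglitazone libraries overlapped the combination. The IL6 call was lost without combination replicate 1 (0.71, 0.0881), 2 (0.77, 0.0617) or 3 (0.68, 0.0986) and without rosiglitazone replicate 1 (0.62, 0.107) or 2 (0.64, 0.106), with a range of 0.00181 to 0.107. In all, 7 of 13 alternatives lost it. With the replicate block PTGS2 (0.43, 0.00233) and CXCL14 (0.24, 0.0419) were called higher as well, beside 24.9% of genes.

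**Figure D4:**
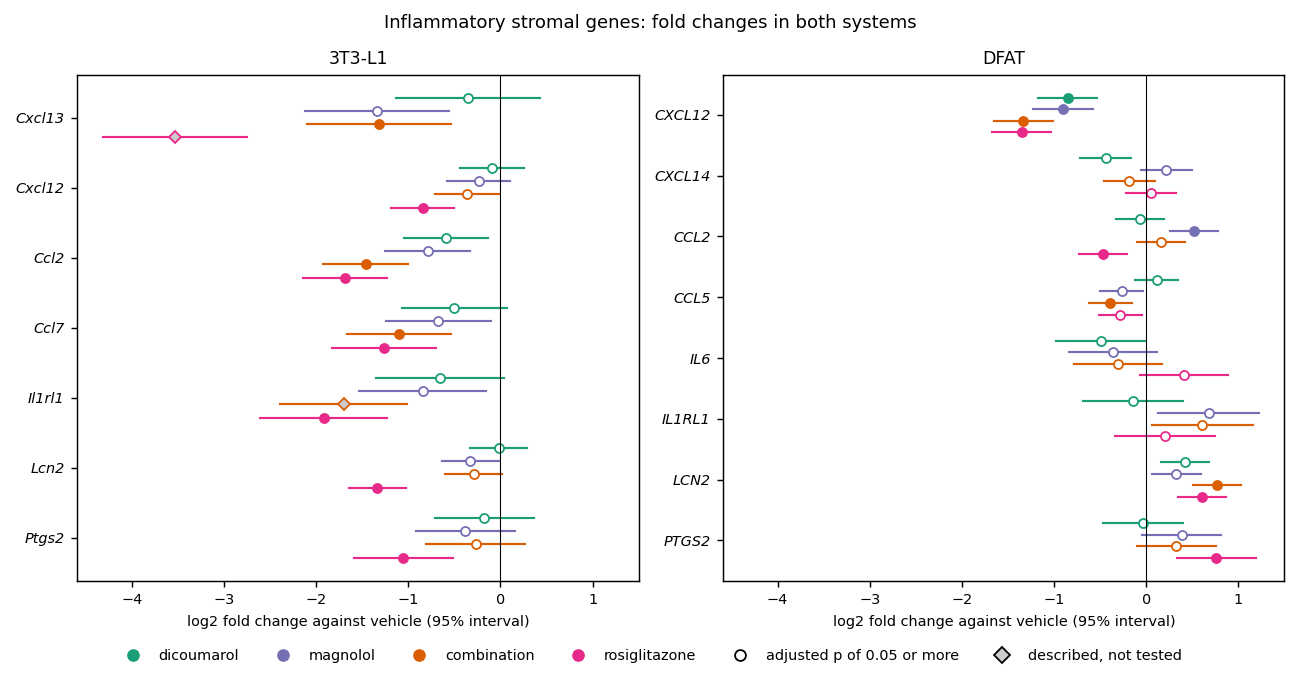
Log2 fold change against vehicle (horizontal axis) with its 95% interval for each tested member in 3T3-L1 (left) and DFAT (right), coloured by treatment. Filled circles passed the test, open circles did not, and grey diamonds are the 2 values described without a test. Every 3T3-L1 value lies below 0, while in DFAT the values lie on both sides of 0 and only CXCL12 lies below 0 with a call for all 4 treatments.

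The 5 members tested in both tables were then compared between the systems, as the difference of the log2 fold changes over 9369 shared gene symbols. Species, medium, cell system and table cannot be told apart in this comparison. With magnolol 3 of 5 members differed (3.69% of shared genes). These were CCL2, at 0.52 in DFAT and −0.79 in 3T3-L1, IL1RL1, at 0.68 and −0.84, and LCN2, at 0.33 and −0.33. The LCN2 and IL1RL1 differences did not pass under quantile normalization or without the variance trend. The mouse vehicle libraries of IL1RL1 entered its known value, so its tests between the systems are not independent of its choice. With the combination 3 of the 4 tested members differed (12.2% of shared genes), leaving aside IL1RL1, whose mouse value was known. CCL2 was at 0.16 in DFAT and −1.46 in 3T3-L1, and LCN2 at 0.77 and −0.29. CXCL12 differed in size and not in sign, at −1.33 in DFAT and −0.36 in 3T3-L1. With rosiglitazone 4 of 5 differed (39.6% of shared genes), and for LCN2 and PTGS2 both values passed their own test with opposite signs. LCN2 was at 0.60 in DFAT and −1.33 in 3T3-L1, and PTGS2 at 0.76 and −1.05. With dicoumarol 0 of 5 differed by this limma-based test (0.16% of shared genes), and 3 had an unadjusted p below 0.05.

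Other genes of the same pathways were followed by lists that were written with earlier results known, so their counts are descriptions. Of 27 other chemokines, 9 were tested in 3T3-L1 and 5 fell with rosiglitazone, among them the neutrophil attractants Cxcl5 (120 to 29.2 normalized counts, log2 fold change −1.94) and Cxcl1 (185 to 102, −0.97) and the membrane-bound Cx3cl1 (1630.4 to 855, −0.9999). Their median log2 fold change was −0.93. Of the interleukin-6 family, 14 were tested, of which 7 fell and 1 rose with rosiglitazone, with the receptor chains Osmr (2435 to 973, −1.34), Il6st (13113 to 6617, −1.004) and Lifr (4389 to 2256, −0.99) named as the largest. Of 11 tested genes of interleukin-1 and interleukin-33 signalling, 6 fell and 1 rose, with Il1rn (98.5 to 27.7, −1.75), which encodes the interleukin-1 receptor antagonist, Il1rap (4364 to 1885, −1.22) and Il18 (75.2 to 38.1, −1.06) leading. Of 20 NF-kappaB subunits and feedback genes, 9 fell and 3 rose, and the inhibitor Nfkbie fell from 186 to 81.2 (−1.18). Acute phase genes went both ways, with 4 of 13 falling and 3 rising: Lbp fell from 705 to 219 (−1.70) while Hp rose from 948 to 2801 (1.61). Each of these rosiglitazone values had an adjusted p of at most 0.00846, beside 19.9% of all genes called lower and 20.3% called higher. Beside the same shares, 10 of 12 tested stromal progenitor genes fell and 2 rose with rosiglitazone, with a median log2 fold change of −0.58. Of 13 tested genes of prostaglandin synthesis and receptors, 6 fell and 2 rose.

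In DFAT the eosinophil attractant CCL11 (129 to 47.2, log2 fold change −1.42) and the lymphoid chemokine CCL19 (142 to 60.9, −1.24) fell with rosiglitazone, which were 2 of 5 other chemokines tested. In the interleukin-6 family 3 of 14 rose and 2 fell, and the cytokine LIF rose from 47.7 to 138 (1.52). In prostaglandin synthesis PTGS1 rose from 172 to 398 (1.21), so that both cyclooxygenase genes were higher. Among 4 tested acute phase genes 3 fell, led by complement C3 (565 to 212, −1.42). In NF-kappaB feedback 2 of 21 rose, the inhibitors NFKBIA (2189 to 2838, 0.37) and TNFAIP3 (1257 to 1568, 0.32), and VCAM1 fell (7018 to 4323, −0.72). Their adjusted p-values were at most 0.00913, beside 10.8% of genes called.

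Known binding partners of the members were read after the members' values had been seen. The Cxcl12 scavenger receptor Ackr3 averaged 143 ± 11.3 with vehicle and 64.2 ± 14.2 with rosiglitazone in 3T3-L1 (log2 fold change −1.16), whereas in DFAT ACKR3 averaged 1127 ± 197 and 2439 ± 269 (1.122). Both passed the test in their own table, with adjusted p-values of 5.14e-05 and 1.17e-06. The other Cxcl12 receptor, Cxcr4, is not listed for 3T3-L1 and stayed at or below 6.85 in DFAT. The Ccl2 receptor CCR2 is listed at 0 in all DFAT libraries and is not listed for 3T3-L1. IL33, the ligand of IL1RL1, averaged 1619 ± 214 with vehicle in DFAT and fell with dicoumarol to 762 ± 16.1 (−1.08, adjusted p = 6.78e-05), with the combination to 687 ± 59.1 (−1.23, adjusted p = 3.09e-06) and with rosiglitazone to 1067 ± 239.97 (−0.62, adjusted p = 0.00289). With magnolol it was 1351 ± 104 (−0.26, adjusted p = 0.317). In 3T3-L1 Il33 did not exceed 13.9. Ptges, which acts after Ptgs2 in prostaglandin E synthesis, did not follow Ptgs2 in 3T3-L1, at 6179 ± 649.7 with vehicle and 6101 ± 1062 with rosiglitazone (−0.03, adjusted p = 0.894).

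For members with a log2 fold change of at least 1 in size, the 2 genes with the nearest 4 log2 fold changes against vehicle were named, over 11578 genes in 3T3-L1 and 9933 in DFAT with a mean of at least 100. The measure was the root mean square difference over the 4 treatments, which share the vehicle libraries. Nearest to Cxcl13 were Fmo2 (0.37) and Mmp3 (0.44), and nearest to Lcn2 were Dpep1 (0.06) and Dact1 (0.06). The measure is not scaled by the standard error, which was 0.37 for Cxcl13 and 0.14 for Lcn2. Distances therefore cannot be compared between members. Those of Cxcl13 and Il1rl1 also use a value known at selection. Nearest to Ptgs2 were Olfm1 (0.05) and Smad7 (0.06), and to Ccl7 Gm5886 (0.07) and Myl9 (0.09). Ccl2 and Il1rl1 were each other's nearest gene (0.17), followed by Agtr2 (0.17) for Ccl2 and Mmp9 (0.22) for Il1rl1. In DFAT the genes nearest to CXCL12 were C3 (0.23) and SULT1A3 (0.31).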

How the data were processed

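Messenger RNA of 30 libraries, 3 per group, was sequenced from stranded libraries, per the labels' protocols. The submitters' processing notes name bcl2fastq 2.19.1.403, STAR, DESeq2 and the build GRCm38, with no role or order. The authors deposited 1 table per system of counts divided by size factors, a signal that is no longer a whole read count. Values of low genes were whole multiples of 1 read (within 0.02) for 81.7% to 82.8% of values in 3T3-L1 libraries and 89.7% to 91.0% in DFAT libraries, which is too few to recover reads for a count test, so reads are estimates. Each table was analysed alone on log2(value + 1) for genes with a mean of at least 10, using limma (version 3.58.1, R version 4.3.3) with a variance trend and 1 model for the 5 groups. A fold change is on the log2(value + 1) scale and understates changes of low genes. Tests are two-sided with Benjamini-Hochberg adjustment over all tested genes of a table, called under 0.05, for 7 comparisons per system.

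Members and gene lists were chosen with earlier results of these data known. Named genes were all members, up to 3 called genes per list and comparison with the largest log2 fold change and a mean of at least 50, the genes with the nearest profile, and binding partners added after values were seen. Replicate numbers pair the 3T3-L1 libraries: same-numbered libraries of different groups deviated together in all 30 pairs (correlation across genes of 0.11 to 0.46). The median for other numbers was −0.14. Deviations were taken from the mean of each group of 3. This pushes other numbers below 0 when same numbers correlate above 0, so −0.14 is no independent baseline. In DFAT the cutoff used for pairing was passed by the combination with magnolol (0.12 to 0.35). Rosiglitazone with the combination passed as well (0.11 to 0.29), and no other comparison made did. Against vehicle the correlations were 0.07 to 0.19 for dicoumarol, 0.005 to 0.21 for magnolol and 0.03 to 0.17 for the combination. They were −0.31 to 0.08 for rosiglitazone against vehicle and −0.02 to 0.09 for the combination against dicoumarol. The fit was tested on simulated data for magnolol against vehicle, with 200 changed genes per system and no pairing of replicate numbers. It recovered 69.5% of them in 3T3-L1 and 85% in DFAT, and 41.8% and 70.1% of those changed 1.5-fold. Of 144 genes called in 3T3-L1, 5 were false, as were 5 of 175 in DFAT. Changes of that size can thus be missed, more so in 3T3-L1. Differences between systems were tested by dividing the difference of the log2 fold changes by its standard error, combined from both fits. Alternatives were pseudocounts of 0.5 and 5, no filter, no variance trend, quantile normalization, only the compared groups, the replicate block and leaving out each library. The main fit, the tests between systems built on it and the fits leaving out a library had no replicate block. In 3T3-L1 they therefore do not use the pairing. Pig promoters and proteins were not analysed here.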

Additional observations from a re-analysis of the deposited data

Results flagged for a closer look

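The effect of a treatment differed between DFAT and 3T3-L1 cells in 10 of 19 tested pairs of a member and a treatment, by a test of the difference itself. Of these 10 pairs, 4 came from rosiglitazone, for which 39.6% of all shared genes differed by the same test. That share was 12.2% for the combination, 3.69% for magnolol and 0.16% for dicoumarol. The members were chosen with earlier results known, so the count describes them and sets them apart from no other genes. Differences are log2 fold changes in DFAT minus those in 3T3-L1, each over 3 libraries per group, with limma p-values adjusted over 9369 shared genes.

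With magnolol the difference was 1.30 for CCL2 (adjusted p = 0.00155), 1.52 for IL1RL1 (0.0308) and 0.65 for LCN2 (0.0470). Under quantile normalization, and again without the variance trend, these IL1RL1 and LCN2 differences did not pass. With the combination it was 1.62 for CCL2 (3.66e-05), −0.97 for CXCL12 (0.00304) and 1.06 for LCN2 (0.000255). With rosiglitazone it was 1.22 for CCL2 (0.000218), 2.12 for IL1RL1 (0.000131), 1.94 for LCN2 (1.78e-09) and 1.82 for PTGS2 (4.27e-05).

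CXCL12 with the combination was the 1 flagged pair with a negative difference, and the other 9 were positive. The mouse vehicle libraries of IL1RL1 entered its value known at selection, so its differences are not independent of that choice. Species, medium, cell system and table cannot be told apart.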

How the results depend on the processing

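Of 103 member fold changes tested, 26 passed, leaving aside the 2 values against vehicle that are described only, and 16 of these passed under every alternative run. The other 10 lost the call somewhere, and none of the 26 changed sign. Both the 26 and the 16 include Cxcl13 for rosiglitazone against the combination, which is described without a p-value. The 103 include Il1rl1 for the combination against dicoumarol and magnolol, and for rosiglitazone against the combination. Libraries of these comparisons, and the 3T3-L1 vehicle libraries of both genes, entered values known at selection. The totals therefore describe the members and are no independent measure of robustness. Depth limits Il6 and Ccl5 in 3T3-L1. Causes of the changes below were not tested. Counts below without the share of all genes called under the same setting cannot be read as results about the members.

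Members called for rosiglitazone against the combination in 3T3-L1 numbered 2 under each of 3 settings: no filter on low values, a fit of only the 6 compared libraries, and no variance trend. Only the compared groups gave 1 for magnolol in 3T3-L1, and no variance trend gave 2 for the combination there. In DFAT both no filter and no variance trend gave 1 for magnolol, 2 for rosiglitazone and 1 for rosiglitazone against the combination. Without the variance trend 1 member differed between the systems for magnolol. Under quantile normalization CXCL12 in DFAT was 0.018 for rosiglitazone against the combination, against −0.02.

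With the replicate block 4 members were called in 3T3-L1 for magnolol (1.44% of genes called lower) and 4 for the combination against dicoumarol (1.13%). In DFAT, where the numbers passed the cutoff for pairing in only 2 comparisons, the replicate block gave 3 for dicoumarol and 4 for magnolol. It gave 4 for the combination against dicoumarol, 2 against magnolol (1.96% of genes) and 4 for rosiglitazone against the combination (24.9%). LCN2 (limma adjusted p = 0.00225) and CXCL14 (0.00345) were added for dicoumarol, and LCN2 (0.00878) and PTGS2 (0.0145) for magnolol. In DFAT same-numbered libraries correlated from −0.31 to 0.35. With the replicate block in both systems, 1 member differed between systems for dicoumarol and 5 for magnolol.

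Leaving out 1 library, the count of members called ran from 2 to 4 for the combination and 2 to 3 for rosiglitazone against the combination in 3T3-L1. In DFAT it ran from 1 to 2 for dicoumarol, 1 to 2 for magnolol, 2 to 4 for rosiglitazone, 0 to 1 for the combination against dicoumarol and 1 to 2 for rosiglitazone against the combination. Log2 fold changes of 17 uncalled results changed sign. In 3T3-L1 these were, for dicoumarol, Cxcl12 (−0.22 to 0.016), Cxcl13 (−0.62 to 0.0029), Lcn2 (−0.10 to 0.13) and Ptgs2 (−0.37 to 0.052). For the combination against dicoumarol it was Ptgs2 (−0.20 to 0.066), and against magnolol Cxcl13 (−0.34 to 0.33), Lcn2 (−0.12 to 0.14) and Ptgs2 (−0.080 to 0.27). For rosiglitazone against the combination they were Ccl7 (−0.46 to 0.11) and Il1rl1 (−0.50 to 0.057). In DFAT they were, for dicoumarol, CCL2 (−0.16 to 0.057), IL1RL1 (−0.32 to 0.035) and PTGS2 (−0.23 to 0.15), for the combination against magnolol IL1RL1 (−0.18 to 0.085), IL6 (−0.071 to 0.19) and PTGS2 (−0.20 to 0.12), and for rosiglitazone against the combination CXCL12 (−0.17 to 0.11).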
